A study of Homo sapiens with 6 samples.

Results

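The genes described here are 10 melanocyte lineage and pigment genes, chosen by symbol. All 10 were found once among the 28395 genes of the deposited table. They are the transcription factors MITF, SOX10 and PAX3, the melanin enzymes TYR, TYRP1 and DCT, the melanosome genes PMEL, MLANA and GPR143, and the receptor KIT. RNA sequencing was performed on A375 cells, an established human melanoma cell line with the label WT for genotype, after 6 h of culture with 0.01% ozonated olive oil (OZO) or, in the controls, with 0.01% olive oil that had not been ozonated (OLO). Each group had 3 libraries. The labels do not say whether these came from separate cultures, and the study describes the values as coming from independent experiments. A375 is a single line, so the levels below are those of that line in both oils and not of melanoma in general.

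The values are the authors' mean log2 CPM, a gene's read count scaled to the size of its library, over all 6 libraries, OLO and OZO together. Values of single libraries or of each group were not analysed here. The other value columns of the table are the authors' own comparison of OZO with OLO and were not used. How far a gene differed between OZO and OLO is therefore not given here, and neither is the spread between libraries. The means carry counting intervals only, and no test was run.

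In melanocytes, SOX10 and PAX3 activate MITF, the basic helix-loop-helix factor that directs the pigment cell programme. MITF binds E-box sequences near the genes of the pigment machinery. Tyrosinase (TYR) begins melanin synthesis, and TYRP1 and DCT act on later intermediates. The reactions take place in melanosomes, whose fibrils are formed by PMEL.

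The A375 libraries held reads of all 3 lineage transcription factors and fewer or none of the pigment genes. Of the pigment genes MLANA had the most, with a mean of 36.6 reads per library. SOX10, MITF and PAX3 made up 96.4% of the summed CPM of the 10 genes, with 93.2 of 96.7 CPM. This share is without division by length and was not computed with it. The other 7 genes all lay below the median level per kb of exon of the 19738 genes ranked, which was 1.29 CPM per kb. TYR, the enzyme that defines the pigment pathway, had no read in any library. The label of lineage genes therefore matched the data for the transcription factors, and the pigment enzymes that mark a melanin-producing cell were at or near 0.

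Sequences near the starts of the melanin enzyme genes are shown first, because they hold an E-box that MITF is known to bind. Each window covers 250 bases before to 50 bases after an annotated start and comes from RefSeq on GRCh38.p14, in the direction of the gene. Capitals mark CATGTG on either strand, which reads CACATG on the other strand. The windows are chr11:89177625-89177924 (plus strand) for TYR, chr9:12693135-12693434 (plus strand) for TYRP1 and chr13:94479633-94479932 (minus strand) for the inner of the annotated DCT starts.
TYR: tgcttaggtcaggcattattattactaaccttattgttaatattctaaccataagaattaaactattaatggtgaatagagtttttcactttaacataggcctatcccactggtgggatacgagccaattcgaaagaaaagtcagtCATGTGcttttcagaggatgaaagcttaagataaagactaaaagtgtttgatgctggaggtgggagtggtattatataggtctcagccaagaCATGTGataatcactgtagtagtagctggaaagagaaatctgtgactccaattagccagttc
TYRP1: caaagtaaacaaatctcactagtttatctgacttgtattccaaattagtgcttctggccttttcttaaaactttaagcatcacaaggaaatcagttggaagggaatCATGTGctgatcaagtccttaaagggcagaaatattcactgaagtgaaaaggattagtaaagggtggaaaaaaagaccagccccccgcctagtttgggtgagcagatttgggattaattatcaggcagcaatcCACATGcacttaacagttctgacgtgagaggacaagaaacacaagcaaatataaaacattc
DCT: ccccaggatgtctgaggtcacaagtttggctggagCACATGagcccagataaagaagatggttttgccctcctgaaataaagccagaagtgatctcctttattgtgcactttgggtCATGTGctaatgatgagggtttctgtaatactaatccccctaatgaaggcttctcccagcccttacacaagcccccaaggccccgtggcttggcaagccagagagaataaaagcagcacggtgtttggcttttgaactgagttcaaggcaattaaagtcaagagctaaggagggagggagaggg

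In the TYR window CATGTG began at positions -104 and -12, counted with the annotated start as 0. In the TYRP1 window the motif began at -144 and, on the other strand, at -11. The DCT window held it at -134 and, on the other strand, at -215. GPR143 had CACATG at -61 and -33 in its window on chromosome X. The RefSeq table had 11 windows for 8 of the members, and 4 of the 11 held CATGTG on either strand. The outer DCT window and the windows of MITF, PAX3, MLANA and KIT held none. Among all 35116 windows of 300 bases, 11.1% held it. The related E-box CACGTG, which reads the same on both strands, was in 0 member windows and in 7.26% of all windows. These matches are letters in a short window and no measure of binding. Thus TYR, with no read, and TYRP1 and DCT, with few, all had CATGTG near a start.

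The read support behind these values was recovered from the table itself. The authors' method, voom, adds 0.5 to each count, so the 7012 genes with no read share the lowest mean, -5.2024 log2 CPM. By that value the libraries held 18409902 counted fragments each as a geometric mean. The size of each library is unknown here. For each gene the excess over the lowest mean gives the product over the 6 libraries of (2 × count + 1), which must be an odd whole number. It was one, within 0.01, for all 5057 genes with the next lowest means. For 7 of the 10 members the same product was read exactly. It gives a lower bound on the total reads and on the reads of the best covered library, but not which library or group held them. Mean reads per library are geometric means here, so a mean times 6 can be below the least total. All 8 widely used genes that were checked had at least 10 mean reads, with means from 4.84 to 12.12 log2 CPM.

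SOX10, an HMG-box factor of the neural crest, had the highest level of the 10 genes. It lies on chromosome 22 from 37972312 to 37984555 (GRCh38.p14). Its mean was 5.64 log2 CPM, or 49.9 CPM (95% interval 48.6 to 51.2), from a mean of 919 reads per library. Per kb of exon SOX10 reached 10.3 CPM, above 79.8% of the ranked genes. Its annotated exons share 260 bases, 5.39% of their length, with POLR2F on the opposite strand. The use of strand in counting is not stated, so reads in the shared bases cannot be assigned to either gene here.

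MITF lies on chromosome 3 from 69739464 to 69968332. Its mean was 4.76 log2 CPM, or 27.1 CPM (95% interval 26.1 to 28.1), from a mean of 499 reads. MITF stood at 3.65 CPM per kb, above 63.2% of the ranked genes. The gene has several starts, of which the innermost gives the melanocyte form, and a value per gene does not tell its forms apart. PAX3, a paired-box factor on chromosome 2 from 222199887 to 222298998, had 4.02 log2 CPM and a mean of 299 reads. This corresponded to 16.2 CPM (95% interval 15.5 to 17.0) and to 2.04 CPM per kb, above 55.4% of the ranked genes. Per kb of exon, SOX10 was 2.83-fold above MITF and MITF was 1.79-fold above PAX3. The first became 1.8-fold by coding length and the second 1.17-fold by the longest transcript. The counting intervals of these neighbours did not overlap. Whether they differ beyond the spread between libraries was not tested.

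**Figure D1:**
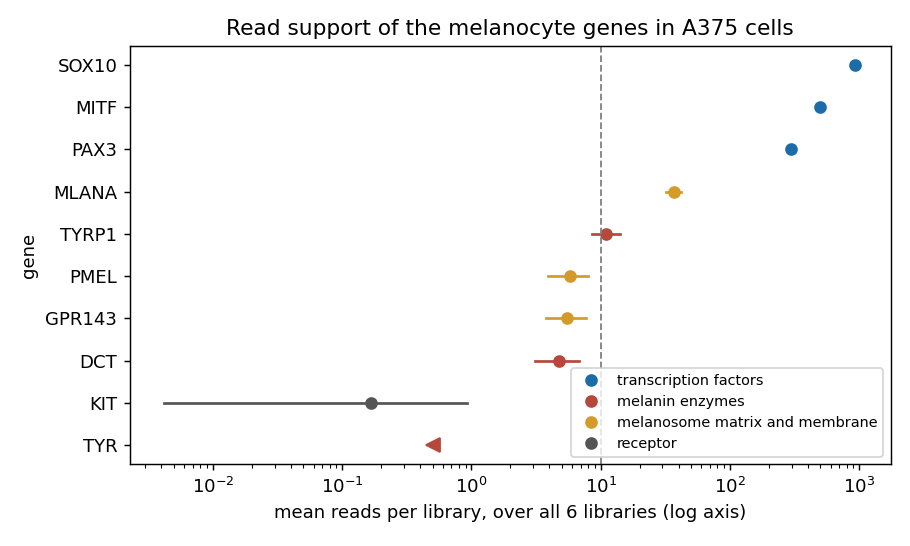
Mean reads per library (horizontal log axis) for each gene (vertical axis), over the 3 OLO and 3 OZO libraries together, coloured by role. Bars are 95% exact binomial intervals of counting error, the triangle for TYR is the limit that 0 reads allow, KIT is drawn at its 1 read divided by 6 libraries, and the dashed line marks 10 reads. SOX10, MITF and PAX3 sit at 299 to 919 reads and the other genes at 36.6 or fewer.

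MLANA, a small membrane protein of early melanosomes, was the highest member outside the transcription factors. Its mean of 1.01 log2 CPM corresponded to 36.6 reads per library and 1.99 CPM (95% interval 1.74 to 2.27). MLANA (chromosome 9, 5890889 to 5910606) was present with at least 226 reads over the 6 libraries, and its best covered library had at least 54. Its level was 0.663 CPM per kb of exon and 5.62 CPM per kb of coding length, as its coding part is short. The lowest transcription factor, PAX3, was 3.08-fold above MLANA per kb of exon, and from 1.91-fold by coding length to 8.16-fold without division by length. MLANA in turn was 4.14-fold above TYRP1 per kb of exon and 15.1-fold by coding length, with intervals that did not overlap in either case.

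TYRP1 (chromosome 9, 12693385 to 12710285) was the melanin enzyme with the most reads, at -0.68 log2 CPM or 0.599 CPM (95% interval 0.462 to 0.76). Its geometric mean was 11.0 reads per library, with at least 72 reads in all. TYRP1 stood at 0.16 CPM per kb, at the 31.5 percentile. Per kb of exon SOX10 was 64.5-fold and MITF 22.8-fold above TYRP1, the latter being 46.2-fold by coding length. The exons of TYRP1 share 102 bases with the antisense gene LURAP1L-AS1, which had a mean of 10.4 reads, about as many as TYRP1 itself. Reads of the shared bases cannot be assigned without the strand used in counting.

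DCT (chromosome 13, 94436811 to 94549406), which converts dopachrome, had -1.81 log2 CPM and a mean of 4.74 reads per library. It had at least 31 reads in all, and its best covered library had at least 7. Its 0.0342 CPM per kb was above 19.8% of the ranked genes, and MITF was 107-fold above it. TYR (chromosome 11, 89177875 to 89295759) was at the lowest value of the table, with 0 reads in each of the 6 libraries. At this depth 0 reads allow up to 0.0272 CPM, counted as 3 reads over all libraries. TYR mRNA was thus not detectable at this depth, which is not the same as absent.

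PMEL, whose product forms the melanosome fibrils, had -1.56 log2 CPM and 5.75 reads per library. The gene lies on chromosome 12 from 55954105 to 55966709, and its reads numbered at least 37 in all. GPR143, a melanosomal receptor altered in ocular albinism, had -1.61 log2 CPM and 5.53 reads, with at least 35 in all (chromosome X, 9725346 to 9778602). Per kb GPR143 was at 0.127 CPM and PMEL at 0.085 CPM. TYRP1 was 1.26-fold above GPR143 and GPR143 1.49-fold above PMEL, and in both steps the counting intervals overlapped. TYRP1 was 1.88-fold above PMEL, with intervals that did not overlap. PMEL was 2.49-fold above DCT per kb of exon, but 1.0-fold per kb of coding length, where the intervals overlapped. It was 2.44-fold above DCT by the longest transcript and 1.21-fold without division by length. The size of this step thus depended on the length used, but DCT was never above PMEL. GPR143 and PMEL did change order, at 0.963-fold without division by length. Exons of PMEL and CDK2 share 89 bases on opposite strands, and CDK2 had a mean of 2040 reads against 5.75 for PMEL. How many of the PMEL reads lie in the shared bases was not tested.

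KIT, the receptor for stem cell factor that melanocyte precursors need, had 1 read in 1 of the 6 libraries. Its mean of -4.94 log2 CPM is that of a single read (chromosome 4, 54657957 to 54740715). The interval of that read was 0.000229 to 0.0504 CPM. KIT and TYR cannot be ordered, since both are within what 3 reads allow.

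**Figure D2:**
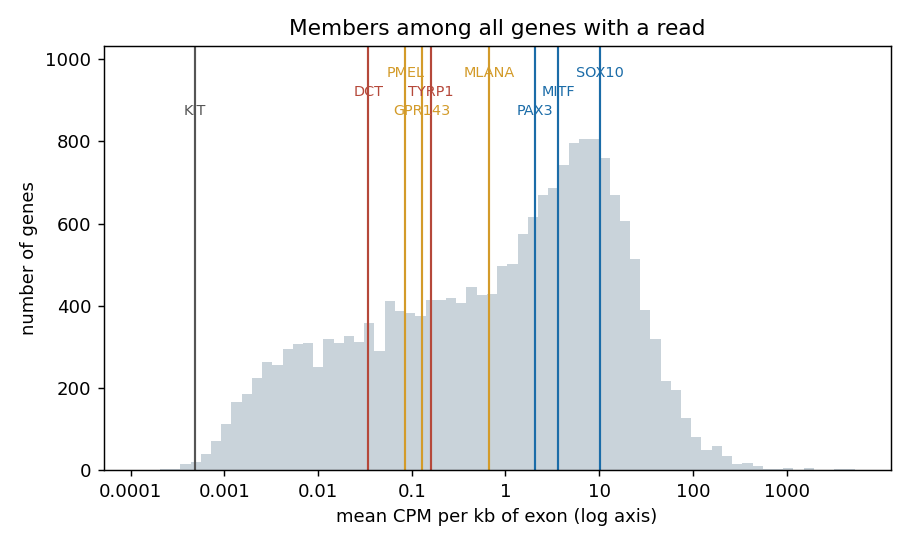
Number of genes (vertical axis) by mean CPM per kb of exon (horizontal log axis) for the 19738 genes with a read and a known length, with the 9 members that had a read as lines, coloured by role. Only SOX10, MITF and PAX3 lie above the median of 1.29 CPM per kb.

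With 10 mean reads as the minimum, 5 of the 10 members were present, against 48.5% of all genes of the table. These were the 3 transcription factors, MLANA and TYRP1, and TYRP1 was just above the limit at 11.0 reads. The count was 8 at a minimum of 3 reads, which adds PMEL, GPR143 and DCT, and 4 at a minimum of 1 CPM, which leaves out TYRP1.

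The other genes of the MITF/TFE family, which share its DNA-binding domain and act on lysosomal genes, were examined beside MITF. TFE3 had the highest level of the family, with 6.13 log2 CPM, 1290 mean reads and 16.6 CPM per kb, 4.55-fold above MITF per kb of exon and 2.36-fold by coding length. TFEB had 4.3 and TFEC 4.75 mean reads, at 0.0347 and 0.0299 CPM per kb. Thus MITF and TFE3 were the family members with at least 10 reads.

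Regulators and receptors of the lineage outside the members were present at middling levels. All 8 had at least 10 mean reads, against 48.5% of all genes of the table. Their median was 1.65 CPM per kb, against 1.29 CPM per kb for all ranked genes. LEF1, a WNT pathway factor, stood at 4.06 and the neuregulin receptor ERBB3 at 4.03 CPM per kb. The lowest were ZEB2 at 0.817 and FOXD3 at 0.265 CPM per kb, the latter with 12.5 mean reads. Both were below the median of all ranked genes, and FOXD3 was also below MLANA at 0.663 CPM per kb.

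Pigment cell genes outside the members were low in most cases. Of the 10 genes, 3 had at least 10 mean reads, against 48.5% of all genes of the table. The other 7 had fewer and 1 of these 7 had none, and the median was 0.045 CPM per kb. GPNMB, a glycoprotein related to PMEL, had 1260 mean reads and 11.6 CPM per kb, well above PMEL itself. QPCT followed at 2.63 CPM per kb. SLC24A4 had 0.285 mean reads and TRPM1, a channel gene controlled by MITF in melanocytes, had no read in any library.

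Genes for melanosome formation and transport, most of which serve lysosome-related organelles in many cell types, were present. Of these 22 genes, 21 had at least 10 mean reads, against 48.5% of all genes of the table, and the median was 2.67 CPM per kb. BLOC1S2 at 27.9 and BLOC1S6 at 20.6 CPM per kb, subunits of a sorting complex, were the highest. MLPH, the linker between RAB27A and myosin, was at 0.281 CPM per kb, and BLOC1S5 had 1.71 mean reads. Exon overlaps with other genes were examined for the members only, so their part in these values is unknown.

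Genes used as markers of a dedifferentiated melanoma state were all present. All 10 had at least 10 mean reads, against 48.5% of all genes of the table. Their median of 13.3 CPM per kb compares with 0.144 CPM per kb for the 10 melanocyte genes. The latter median falls between SOX10, MITF and PAX3, at 2.04 to 10.3, and the other members, at 0.663 or less. Both lists were chosen with earlier results of these data known, and the levels are means over OLO and OZO together. FOSL1 had 87.4 and the receptor kinase AXL 52.0 CPM per kb, and AXL was 5.03-fold above SOX10 per kb of exon and 3.22-fold by coding length. The lowest were EGFR at 1.77 and SOX9 at 1.17 CPM per kb of exon, both below SOX10, MITF and PAX3. Without division by length EGFR, at 28.3 CPM, was above MITF at 27.1 and PAX3 at 16.2 CPM.

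**Figure D3:**
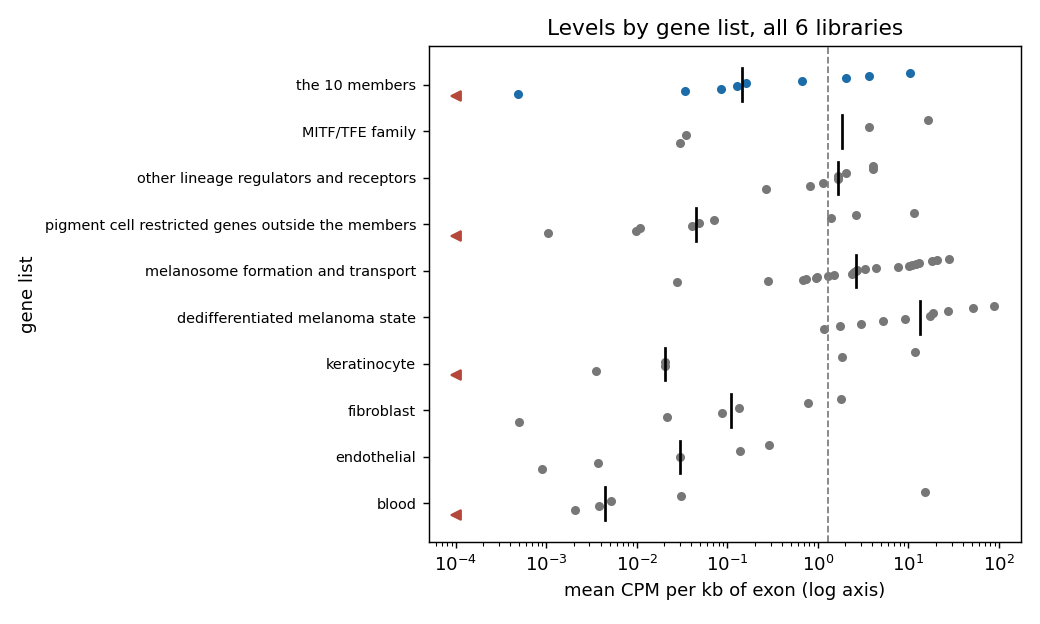
Mean CPM per kb of exon (horizontal log axis) for each gene of each list (vertical axis), where a point is 1 gene, a black line is the median of the list, a triangle at the left edge is a gene with no read, and the dashed line is the median of all ranked genes. The 10 melanocyte genes have a median of 0.144 CPM per kb and the dedifferentiated state genes 13.3 CPM per kb.

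Markers of other skin and blood cells were examined in the same way. At least 10 mean reads were held by 2 of 6 keratinocyte, 4 of 6 fibroblast, 2 of 5 endothelial and 1 of 6 blood genes. The share among all genes of the table was 48.5%. The keratinocyte genes with at least 10 mean reads were KRT10 (11.8 CPM per kb) and KRT14 (1.87 CPM per kb). Of the others, DSG3 had 0.366 mean reads and KRT1 none. Among fibroblast genes LUM had 1.78 and PDGFRB 0.774 CPM per kb, DCN 5.12 mean reads and COL1A2, a main collagen of fibroblasts, 0.1 mean reads. The endothelial genes KDR and PECAM1 had 33.4 and 19.5 mean reads, VWF 0.704 and CDH5 0.1. In blood, CD68, a lysosomal protein found in many cells, was at 15.1 CPM per kb, HBB had 0.733 mean reads and CD3E 0.1. The summed levels were 29.9 CPM for keratinocyte, 12.6 for fibroblast, 3.06 for endothelial and 32.9 for blood genes, of which KRT10 alone held 25.5 and CD68 alone 32.8 CPM. By the labels the libraries are of the cultured A375 line and not of a tissue, and the part of other cells in any level was not tested.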

How the data were processed

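RNA of A375 cells, 3 libraries with OLO and 3 with OZO, was prepared with a strand-specific kit and sequenced by a contractor. Per the labels and the study's methods, the authors aligned reads with HISAT2 2.1.0 to hg38, counted them per NCBI gene with featureCounts 2.1.1 and ran limma-voom 3.58.1. Normalization factors, filters and the use of strand are not stated. The deposited table holds log2 values of 2 kinds. Of these, only the authors' mean log2 CPM over all libraries was used. The fold changes, t, p-values and B values are the authors' own comparison and were not used. Values per library were not analysed here, so the planned edgeR or limma test of OZO against OLO was not run.

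The library size and the mean reads were computed from the lowest value, with voom's 0.5 removed, in Python 3.11.15 with pandas 2.3.3 and SciPy 1.17.1. The mean is geometric. The recovery was also run on simulated data, and the outcome is not given here. CPM was divided by the union of exons in GENCODE 44, found for 25497 of 28395 genes by Ensembl identifier, and ranks were taken over genes with a read. Exact Clopper-Pearson intervals at 95% take the mean reads times 6 libraries of equal size and, like the floor of 3 reads, cover counting error only. For KIT and TYR they take the exact total. For MLANA, TYRP1, GPR143, PMEL and DCT the total taken is under the least possible one, so their intervals lie somewhat low. Coordinates and start windows are from RefSeq on GRCh38.p14, matched by NCBI gene number. Members and lists were chosen with earlier results of these data known. All members, the whole MITF/TFE family and the 2 highest and 2 lowest genes of each other list are named, except 1 gene that is not reported here.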

Additional observations from a re-analysis of the deposited data

How the results depend on the processing

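No paired analysis was possible because a mean over all 6 libraries carries no value of any single library. Other normalizations, count filters, pseudocounts, a replicate block and leaving out each replicate were not run for that reason, and how far 1 library decides a mean is unknown. The number of members present at 10 mean reads, 5, was 8 at a minimum of 3 reads and 4 at 1 CPM. The order of the 10 levels was the same for levels divided by the longest transcript or by coding length, apart from PMEL and DCT, equal at 0.156 CPM per kb of coding length. The levels themselves moved. Of the 9 members with a read, 3 were over 1.5 times higher by the longest transcript and 9 by coding length, at 1.83 to 8.46 times, because these lengths are shorter, and folds between genes moved with them. Without division by length 8 members kept their place, and PMEL and GPR143 changed places. Counts of list genes stayed within 1.5 times in 8 of 9 lists at 3 reads, the exception being the MITF/TFE family with 4 genes against 2, and in 9 of 9 at 1 CPM. Ranks were higher over all genes of the table, since unread genes were then included.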
